A study of Saccharomyces cerevisiae with 11 samples.

Results

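The 4 genes described here, HXK1, HXK2, GLK1 and EMI2, encode the enzymes of budding yeast that phosphorylate glucose, and they were taken by name from the array's gene annotation as a family of glucose-induced and glucose-repressed isoenzymes. They are 4 of 5415 genes measured above background, and each was represented by 1 probe set that the annotation assigns to no other gene. They were chosen by name and not by a threshold, but with the signals of these 11 arrays and their mutant-against-WT differences already known, so the levels and differences of the 4 genes are given as a description, with intervals and no test.

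Expression was measured in 5 strains of Saccharomyces cerevisiae whose own H2A genes had been deleted and whose only H2A came from a plasmid, so that every strain, WT included, carries both the deletions and a plasmid. R11ΔS15 (2 arrays) carries the insertion at position 11 together with deletion of serine 15 in the H2A N-terminal domain, ΔS15 (2 arrays) the deletion alone, R11 (2 arrays) an inserted arginine, K11 (2 arrays) an inserted lysine, and WT (3 arrays) the unaltered protein. The titles name the insertion of R11ΔS15 as arginine, whereas its genotype entry names lysine, and the name in the titles is used here. All cultures received no treatment, were diluted to an OD600 of 0.2 in the glucose medium YPD and were harvested in log phase at an OD600 of 0.8.

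Phosphorylation to glucose 6-phosphate traps glucose in the cell and starts glycolysis, the pentose phosphate pathway and the synthesis of trehalose and glycogen. Hxk2 is the main hexokinase of cells growing on glucose and also takes part in glucose repression, the shutdown of genes for other carbon sources that acts through the kinase Snf1 and the repressor Mig1. HXK1 and GLK1, a hexokinase and a glucokinase, are classically induced when glucose runs out, and EMI2 encodes a close paralogue of Glk1 that is also raised when glucose is scarce.

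The arrays fell into 2 sets that did not follow the strains alone. The 18 probe sets of the hybridization spike-ins averaged 10.50 to 10.54 on the log2 scale on both R11ΔS15 arrays, both ΔS15 arrays and WT replicate 3, and 10.65 to 10.85 on both R11 arrays, both K11 arrays and WT replicates 1 and 2. The ratio of the 3′ to the 5′ probe set of ACT1, a measure of how far labelling reached along a transcript, was 1.04 to 1.11 in the first set and 1.26 to 1.35 in the second. Only WT had arrays in both sets, so the differences of the 4 members and of the gene lists in R11ΔS15 and ΔS15 are given below against all 3 WT arrays and also against WT replicate 3 alone. The arrays of R11 and K11 share their set with WT replicates 1 and 2. Genes of chromosome IX stood at 1.67 times their median array on R11ΔS15 replicate 2 and on ΔS15 replicate 1, and none of the 4 genes is on that chromosome. The histone gene HTA1 read 6190 to 7643 on all 11 arrays and does not tell the strains apart, since all of them express H2A. The a-cell markers MFA1, MFA2, STE2 and BAR1 read 1040 to 5587, and the alpha-cell markers MF(ALPHA)1, MF(ALPHA)2 and STE3 read 29.1 to 224.

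HXK1 was the member whose level varied most. It was higher on each of the 4 arrays of the strains without serine 15 than on any of the 7 other arrays, with 1288 to 2149 signal units (median 1861) against 387 to 1243 (median 793). The share of all genes with this pattern was not counted, and these 4 arrays all belong to the lower spike-in set. HXK1 (YFR053C) lies on the reverse strand of chromosome VI at positions 253592 to 255049 of the R64 assembly, with 3 annotated genes between it and the right end of the chromosome. Its signal was 2149 and 2023 in R11ΔS15, 1698 and 1288 in ΔS15, 865 and 602 in R11, 938 and 667 in K11, and 793, 387 and 1243 in WT. WT replicate 3 was the highest of the arrays with serine 15 and stood just below the lower ΔS15 array.

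**Figure D1:**
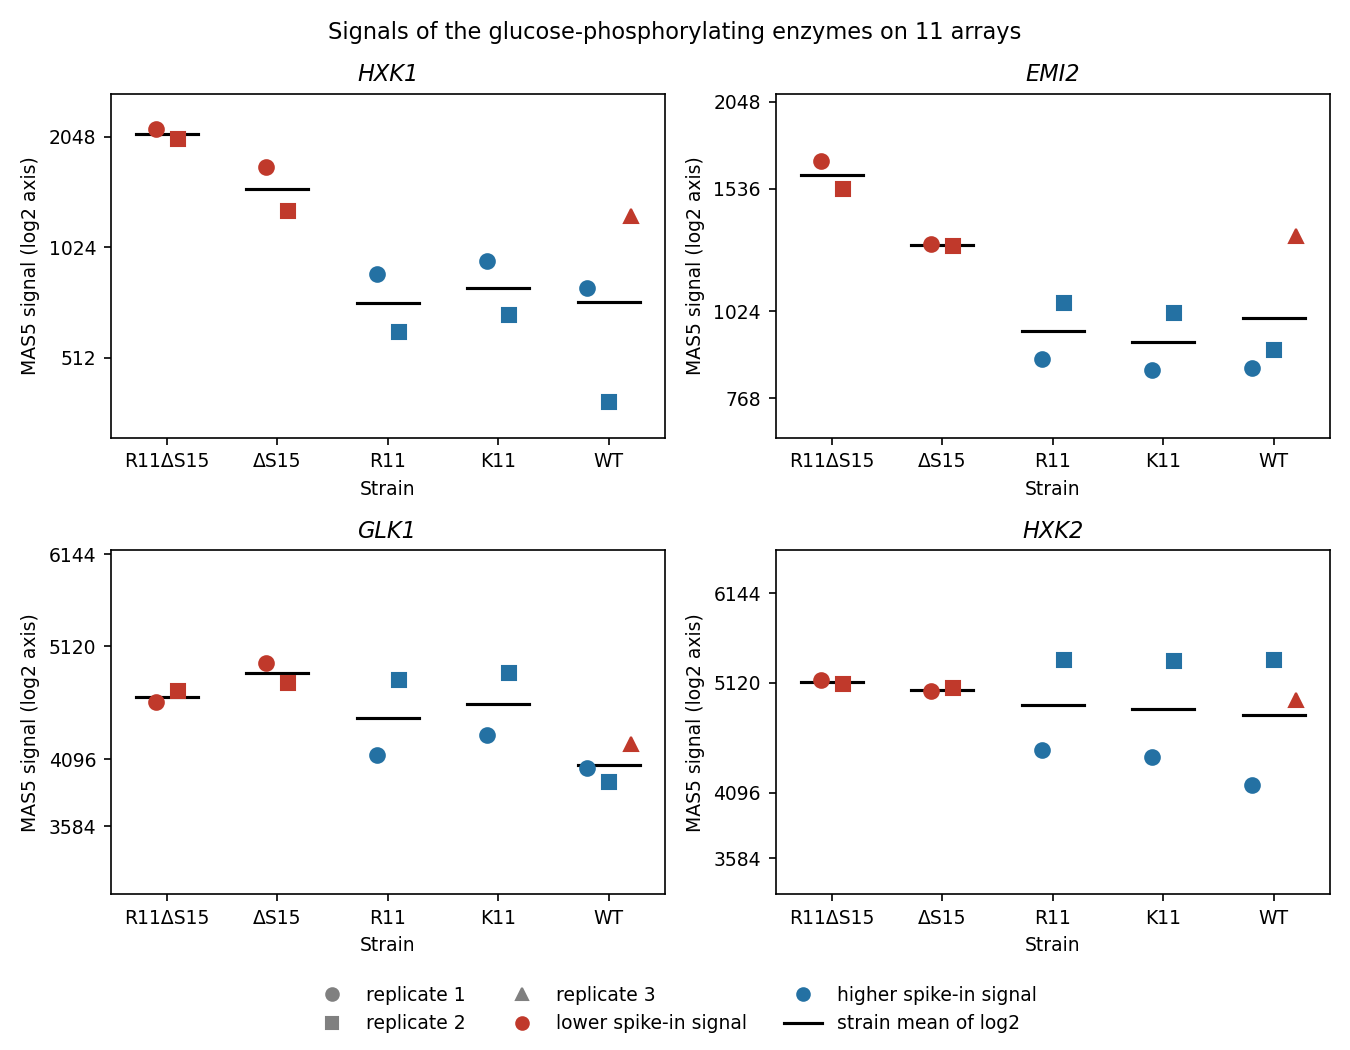
MAS5 signal of each gene (vertical log2 axes, each panel with its own range) on the 11 arrays, by strain; shapes mark replicate numbers, red the 5 arrays with the lower spike-in signal, blue the 6 with the higher, and the bar is the mean of the log2 signals. HXK1 ran from 1288 to 2149 on the 4 arrays without serine 15 and from 387 to 1243 on the other 7, whereas HXK2 stayed between 4162 and 5364 on all 11.

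Against WT, the log2 difference of HXK1 was 1.52 in R11ΔS15 (SE 0.37, 95% interval 0.71 to 2.34), which is 2.88-fold. In ΔS15 it was 1.03 (SE 0.37, 95% interval 0.22 to 1.84), which is 2.04-fold. In size this was the third of 5415 genes in R11ΔS15 and the eleventh in ΔS15, among 13 and 12 genes that differed 2-fold or more in either direction (0.240% and 0.222% of all genes). Against WT replicate 3 alone the same log2 differences were 0.75 and 0.25. The part of the array sets in them was not tested.

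In the strains that keep serine 15, HXK1 was not set apart from WT. The log2 difference was -0.01 in R11 (95% interval -0.82 to 0.81) and 0.13 in K11 (95% interval -0.69 to 0.94), and both intervals are wide. Against WT replicates 1 and 2 alone these values were 0.38 in R11 and 0.51 in K11. They stand beside 0.25 in ΔS15 and 0.75 in R11ΔS15 against WT replicate 3 alone. By these values R11 and K11 were further above WT arrays of their own set than ΔS15 was. The R11 and K11 values depend on WT replicate 2, the lowest of the 11 arrays at 387. Without it, against WT replicates 1 and 3, R11 was at -0.46 and K11 at -0.33. The ΔS15 value rests on WT replicate 3 alone, so these values do not rank the strains. The strain order of HXK1 on the mean log2 scale was R11ΔS15, ΔS15, K11, WT and R11. The last 3 strains overlapped each other, and R11ΔS15 was above ΔS15 by 0.50 (SE 0.41, 95% interval -0.39 to 1.39), with no overlap between their arrays (every array higher in 8.37% of all genes). R11ΔS15 exceeded R11, the strain with the same insertion and serine 15, by 1.53 (SE 0.41). The effect of the insertion without serine 15 minus its effect with serine 15 was 0.50 (SE 0.55, 95% interval -0.70 to 1.71), so the data did not separate an added effect of the 2 changes from the sum of each.

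EMI2 had the same order at its top with smaller differences. EMI2 (YDR516C) lies on the reverse strand of chromosome IV at positions 1474974 to 1476476. Its signal was 1684 and 1534 in R11ΔS15, 1279 and 1271 in ΔS15, 874 and 1050 in R11, 842 and 1018 in K11, and 849, 899 and 1311 in WT. Both R11ΔS15 arrays were above all 9 others, whereas both ΔS15 arrays were below WT replicate 3 and above the remaining arrays with serine 15. The share of all genes with either pattern was not counted. The log2 difference from WT was 0.68 in R11ΔS15 (SE 0.18, 95% interval 0.29 to 1.07), which is 1.61-fold, and 0.35 in ΔS15 (SE 0.18, 95% interval -0.04 to 0.74). Against WT replicate 3 alone these values were 0.29 and -0.04. EMI2 differed from WT by -0.06 in R11 and by -0.11 in K11, and the direction turned against WT replicates 1 and 2 alone, with 0.13 in R11 and 0.083 in K11. R11ΔS15 was 0.33 above ΔS15 (SE 0.20) and 0.75 above R11 (SE 0.20).

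GLK1 differed little, but it was above WT in all 4 mutants. GLK1 (YCL040W) lies on the forward strand of chromosome III at positions 50838 to 52340, where 1 other annotated gene, YCL042W, overlaps it. Its signal was 4582 and 4688 in R11ΔS15, 4956 and 4765 in ΔS15, 4126 and 4788 in R11, 4297 and 4853 in K11, and 4028, 3916 and 4217 in WT. WT was the lowest strain by mean, and 1 of the 8 mutant arrays, R11 replicate 1, fell inside the range of WT. The log2 difference was 0.19 in R11ΔS15 (SE 0.09, 95% interval 0.00 to 0.38), 0.26 in ΔS15 (SE 0.09, 95% interval 0.07 to 0.45), 0.13 in R11 (SE 0.09) and 0.17 in K11 (SE 0.09). Against WT replicate 3 alone it was 0.14 in R11ΔS15 and 0.20 in ΔS15. Among the mutants ΔS15 was highest and R11 lowest by mean, and R11 and K11 overlapped the other 2. Both R11ΔS15 arrays were below both ΔS15 arrays (every array lower in 7.94% of all genes), a log2 difference of -0.07 (SE 0.09).

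HXK2, the isoenzyme classically abundant on glucose, was the member closest to WT in R11ΔS15 and ΔS15. HXK2 (YGL253W) lies on the forward strand of chromosome VII at positions 23935 to 25395, with 12 annotated genes between it and the left end. Its signal was 5148 and 5107 in R11ΔS15, 5033 and 5064 in ΔS15, 4469 and 5361 in R11, 4402 and 5352 in K11, and 4162, 5364 and 4948 in WT. The 4 arrays without serine 15 spanned 1.02-fold and all fell inside the 1.29-fold range of WT. The log2 difference was 0.10 in R11ΔS15 (SE 0.12, 95% interval -0.16 to 0.36), 0.07 in ΔS15 (95% interval -0.19 to 0.33), 0.03 in R11 and 0.02 in K11. In R11ΔS15 and ΔS15 these intervals, unlike those of HXK1 in the same strains, did not reach a 2-fold change in either direction. Against WT replicate 3 alone HXK2 was at 0.05 in R11ΔS15 and 0.029 in ΔS15.

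Of the 4 members, HXK1, GLK1 and EMI2 had every R11ΔS15 array above every WT array, which 10.6% of all genes did. HXK1 and GLK1 did so in ΔS15 (7.90% of all genes), GLK1 alone in K11 (4.60%) and no member in R11 (3.62%). No member had every mutant array below every WT array, a pattern of 12.6% of genes in R11ΔS15, 7.79% in ΔS15, 4.71% in R11 and 4.17% in K11, and no member differed 2-fold from WT in R11 or K11 (0.0923% and 0.0739% of genes). Across the genome limma passed 0 of 5415 genes at an adjusted p of 0.05 in each of the 4 comparisons with WT (0%). At an unadjusted p under 0.05 the count was 544 genes in R11ΔS15, 286 in ΔS15, 19 in R11 and 23 in K11. A fit without WT replicate 3 passed 128 genes in R11ΔS15 and 38 in ΔS15 at the adjusted threshold. These 4 comparisons share their 3 WT arrays. R11 and K11, which differ in the inserted residue, were within 0.13 of each other on the log2 scale for all 4 members, the widest interval being that of HXK1 (-1.02 to 0.76).

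**Figure D2:**
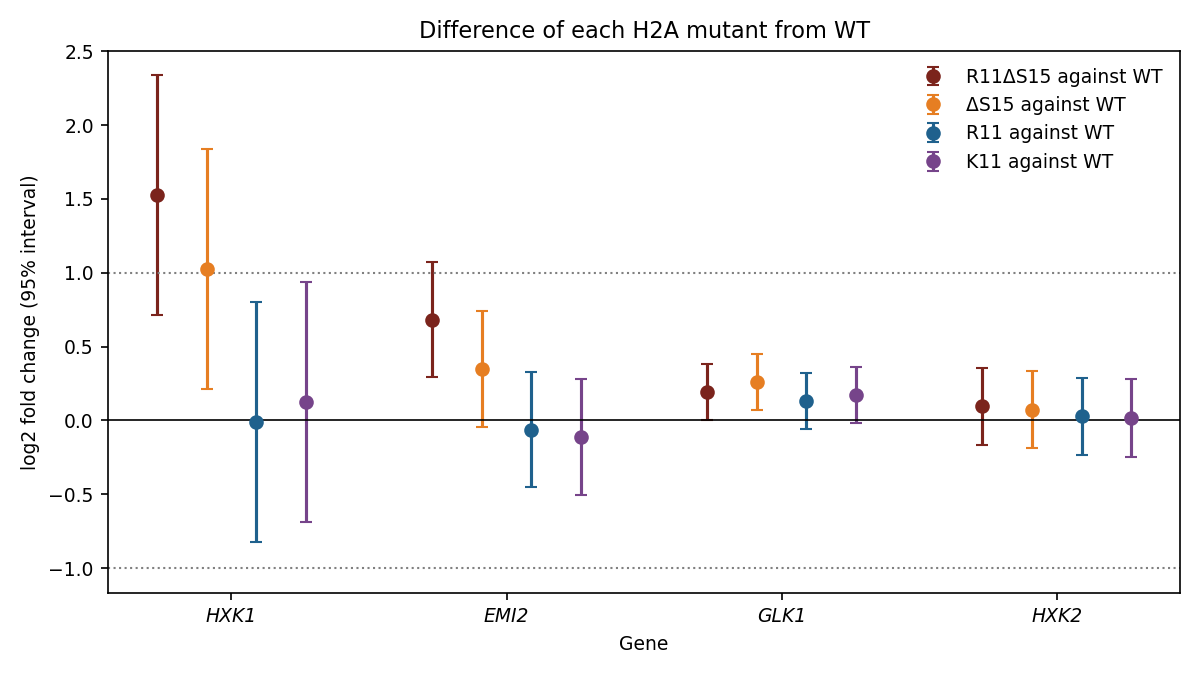
Log2 fold change of each gene in each mutant against WT (vertical axis, with 95% intervals from limma over 11 arrays); the dotted lines mark 2-fold. HXK1 was at 1.52 in R11ΔS15 and 1.03 in ΔS15, EMI2 at 0.68 and 0.35, and every HXK2 value was within 0.10 of 0.

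A ratio of 2 members on one array cancels whatever scales all probe sets of that array alike. The log2 ratio of HXK1 to HXK2, relative to its WT mean, was 1.43 ± 0.05 in R11ΔS15 and 0.95 ± 0.29 in ΔS15 (SD, n = 2 each), with R11 at -0.04 ± 0.56 and K11 at 0.11 ± 0.55 (SD, n = 2 each). The 3 WT arrays ran from -1.07 to 0.73 (SD 0.94), so the lower ΔS15 array, at 0.75, was next to WT replicate 3. The ratio of EMI2 to HXK2 was 0.59 in R11ΔS15, 0.28 in ΔS15, -0.09 in R11 and -0.13 in K11, with WT arrays between -0.31 and 0.35. The ratio of GLK1 to HXK2 was between 0.10 and 0.19 in the 4 mutants, with WT arrays between -0.21 and 0.20. Replicate 1 of ΔS15 (0.22) and of K11 (0.21) lay just above the highest WT array. Relative to HXK2, the R11ΔS15 mean of HXK1 was furthest from WT, that of EMI2 nearer and that of GLK1 nearest. This order follows arithmetically from the log2 differences given above and adds no separate support to them.

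**Figure D3:**
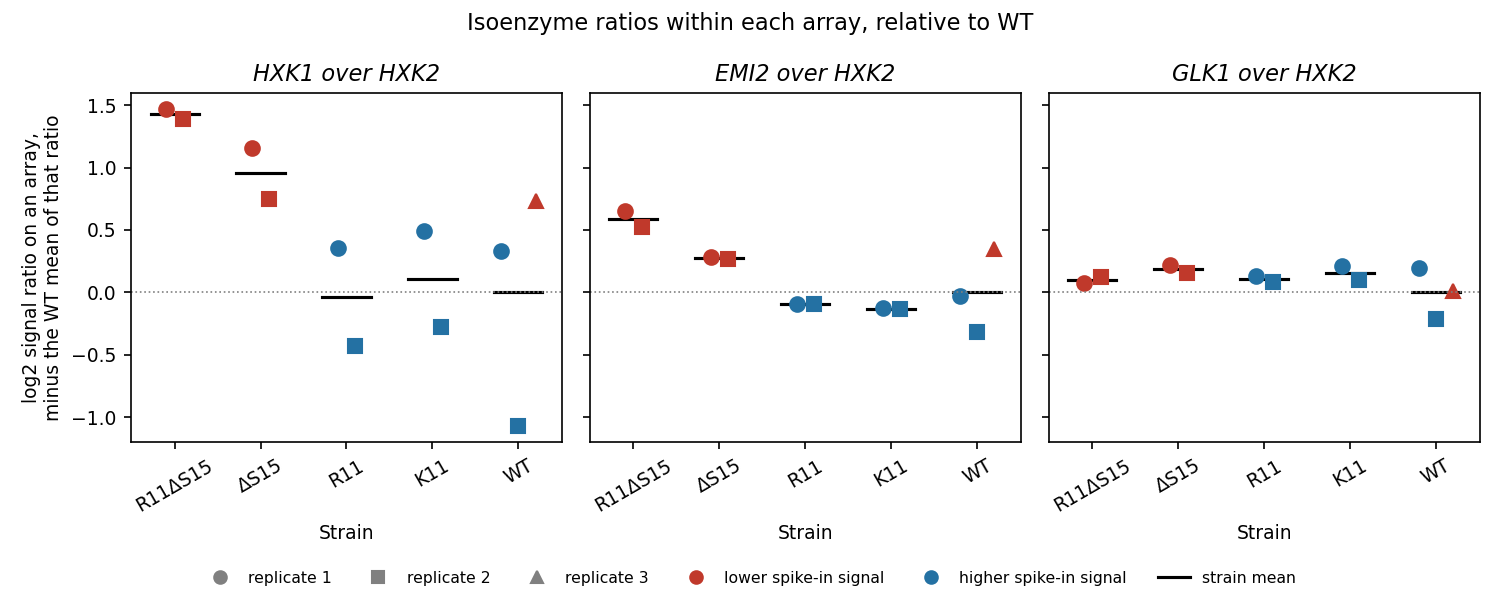
Log2 ratio of HXK1, EMI2 and GLK1 to HXK2 on each array, minus the WT mean of that ratio (vertical axis), by strain; shapes mark replicates, colours the 2 spike-in sets and bars the strain means. Both R11ΔS15 arrays lie at 1.39 to 1.47 for HXK1, above the highest WT array at 0.73.

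HXK1 also varied between replicates of one strain, and in the opposite sense to HXK2. Replicate 1 exceeded replicate 2 for HXK1 in all 5 strains, by 1.06-fold in R11ΔS15, 1.32-fold in ΔS15, 1.44-fold in R11, 1.41-fold in K11 and 2.05-fold in WT. For HXK2, replicate 1 was 0.834, 0.823 and 0.776 times replicate 2 in R11, K11 and WT, and 1.01 and 0.994 times in R11ΔS15 and ΔS15. Replicate numbers moved many genes: 33.8% of all genes were above and 34.3% below in replicate 1 of R11, K11 and WT alike, and 9.27% were above in all 5 strains. Over the 11 arrays HXK1 spanned 5.55-fold, with an SD that exceeded that of 99.6% of genes, EMI2 2.0-fold (91.4%), HXK2 1.29-fold (26.6%) and GLK1 1.27-fold (23.0%). The median gene spanned 1.44-fold. The within-strain SD of HXK1, 0.54 on the log2 scale, also exceeded that of 98.5% of genes.

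The members followed one another to different degrees. Over the 11 arrays, which share strains and spike-in sets, log2 signals of HXK1 and EMI2 had a Pearson r of 0.81 (Spearman rho 0.69), GLK1 and EMI2 0.56 (rho 0.42), HXK2 and GLK1 0.52 (rho 0.29), HXK2 and EMI2 0.50 (rho 0.38), HXK1 and GLK1 0.46 (rho 0.30), and HXK1 and HXK2 -0.04 (rho -0.25). Within the 6 arrays of the higher spike-in set the r of HXK1 was -0.77 with HXK2, -0.38 with EMI2 and 0.12 with GLK1, whereas GLK1 and EMI2 had 0.84, HXK2 and EMI2 0.82, and HXK2 and GLK1 0.51. Among all tested genes EMI2 was the 209th most like HXK1 by Pearson r, GLK1 the 1450th and HXK2 the 3103rd.

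The genes below were picked as the highest correlations with each member among all tested genes, so high r values follow from that choice. The 3 genes most like HXK1 over the 11 arrays were AIM17 (r 0.99), RAS2 (0.97), which encodes a GTPase that turns on the cAMP-dependent kinase, and YMR315W (0.97). AIM17 read 441 and 422 in R11ΔS15, 372 and 336 in ΔS15, 262 and 210 in R11, 262 and 218 in K11, and 243, 178 and 353 in WT, so it shared with HXK1 the low WT replicate 2 and the high WT replicate 3. Its log2 difference from WT was 0.80 in R11ΔS15 and 0.51 in ΔS15, against 0.29 and 0.22 for RAS2. The genes most like EMI2 were MRS4 (0.99), a mitochondrial iron carrier, ATG19 (0.97), a receptor of selective autophagy, and TPK2 (0.97), a catalytic subunit of the cAMP-dependent kinase, with log2 differences of 0.47, 0.40 and 0.51 in R11ΔS15. Those most like HXK2 were SAM1 (0.98), ALD6 (0.97) and CDC6 (0.97), a replication licensing gene that read 374 and 772 in replicates 1 and 2 of K11. GLK1 had looser companions, BUD4 (0.88), AAD4 (0.87) and FRA1 (0.87). As many as 8.57% of genes had an r above 0.8 with EMI2, 4.36% with HXK1, 4.25% with HXK2 and 0.332% with GLK1.

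The genes beside the members showed no shift of the size of HXK1. RPN12, 262 bases to the left of HXK1, had a log2 difference of 0.00 in R11ΔS15 and 0.14 in ΔS15, and IRC7, the next measured gene toward the chromosome end, had 0.13 and 0.02. Beside EMI2, SLF1 was at 0.32 and 0.30 and GRH1 at 0.21 and 0.12. RTG2, right of HXK2, was at 0.38 and 0.40 while HXK2 itself was at 0.10 and 0.07. FZF1, on the other side of HXK2, was at 0.01 and -0.10, and PDI1 and GID7 beside GLK1 were at -0.08 and -0.13 in R11ΔS15.

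The genes around glucose phosphorylation were described with 9 lists written from general knowledge of yeast, from which the 4 members were left out. These lists share some genes, such as HXT2 and HXT7 in glucose-repressed and transport genes, and MIG2 in sensing and glucose-induced genes. None of their genes passed limma in R11ΔS15 or ΔS15, so each list is given by its counts and its median beside those of all genes (50.4% above 0 and a median of 0.00 in R11ΔS15, 50.8% and 0.00 in ΔS15). Of 13 measured genes for the glycolytic steps after glucose phosphorylation, 1 was above and 12 below 0 in R11ΔS15, with a median of -0.23. ΔS15 had the same counts and a median of -0.16. CDC19, the main pyruvate kinase, read 7733 and 7399 in R11ΔS15, 7824 and 7610 in ΔS15, 9340 and 9460 in R11, 8766 and 9257 in K11, and 9379, 9906 and 7857 in WT. The 4 arrays without serine 15 were all below the WT arrays, WT replicate 3 by a small margin. Every array was lower than WT in 12.6% of all genes in R11ΔS15 and 7.79% in ΔS15. The log2 difference of CDC19 was -0.25 in R11ΔS15 (SE 0.09), and -0.055 against WT replicate 3 alone. FBA1, the aldolase, was at -0.23, PFK2, a subunit of phosphofructokinase, at -0.18, and PGI1, which turns glucose 6-phosphate into fructose 6-phosphate, at -0.11. The 1 gene above 0 was PYK2 (0.32), the minor pyruvate kinase that is repressed by glucose.

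Genes for the other fates of glucose 6-phosphate lay mostly above 0 in R11ΔS15, 14 of 16 with a median of 0.18, and 12 of 16 with a median of 0.13 in ΔS15. TPS1, the trehalose 6-phosphate synthase whose product inhibits hexokinases, read 2361 and 2359 in R11ΔS15, 2213 and 2042 in ΔS15, and 1448, 1359 and 1874 in WT. All 4 arrays without serine 15 were above the WT arrays (every array higher in 10.6% of all genes in R11ΔS15 and 7.90% in ΔS15). The log2 differences of TPS1 were 0.61 (SE 0.14) and 0.46. Against WT replicate 3 alone these were 0.33 and 0.18. TSL1, the large subunit of the same complex, read 1138 and 1655 in R11ΔS15, 1131 and 840 in ΔS15 and 762, 646 and 847 in WT, with a log2 difference of 0.88 (SE 0.19) in R11ΔS15. Its 2 R11ΔS15 arrays were above all WT arrays and its 2 ΔS15 arrays lay on either side of the highest. ZWF1, the entry to the pentose phosphate pathway, was at 0.50 (0.075 against WT replicate 3 alone), PGM2, a phosphoglucomutase, at 0.43, and UGP1, which makes UDP-glucose, at 0.30.

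The 20 stress targets of Msn2 and Msn4, transcription factors that also act on HXK1 and GLK1 when glucose falls, had 17 genes above 0 and a median of 0.41 in R11ΔS15, and 15 genes and 0.20 in ΔS15. In K11, which keeps serine 15, 17 were also above 0, with a smaller median of 0.10 (all genes 44.5% above 0). R11 had 10 above 0 and a median of -0.003 (all genes 43.5% above 0). DDR2 read 784 and 913 in R11ΔS15, 845 and 647 in ΔS15 and 358, 386 and 503 in WT. Its arrays did not overlap WT in either strain (every array higher in 10.6% of all genes in R11ΔS15 and 7.90% in ΔS15). The log2 difference of DDR2 was 1.04 (SE 0.17, limma adjusted p = 0.324) in R11ΔS15 and 0.85 in ΔS15. The catalase CTT1 was at 0.46 and the membrane protein gene HSP12 at 0.49 (0.12 and 0.61 against WT replicate 3 alone), whereas MSN2 and MSN4 themselves were at -0.07 and 0.16.

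The glucose repression machinery had counts near those of all genes, and the counts of glucose-repressed genes moved with the arrays used. Of 26 genes of glucose sensing and repression, 15 were above and 11 below 0 in R11ΔS15 (median 0.02), and in ΔS15 there were 13 of each (0.01). SNF1 was at 0.05, MIG1 at 0.21, REG1, which encodes a subunit of the phosphatase that opposes Snf1, at 0.16 and MTH1, a corepressor of hexose transporter genes, at 0.36. Of 23 glucose-repressed genes, 16 were above and 7 below 0 in R11ΔS15 (median 0.10) and 14 and 9 in ΔS15 (median 0.04). Without the 2 arrays with raised chromosome IX, 20 were above and 3 below 0 in each strain. The medians of the list were then 0.20 in R11ΔS15 and 0.15 in ΔS15, beside 0.01 and 0.05 for all genes. In that setting, here and below, R11ΔS15 is replicate 1 alone and ΔS15 is replicate 2 alone. The counts turned against WT replicate 3 alone, with 7 above and 16 below 0 in R11ΔS15, and 5 and 18 in ΔS15. With all arrays, ADH2, the classical glucose-repressed alcohol dehydrogenase, was at 0.02 in R11ΔS15. HXT7, a high-affinity transporter whose probe set is shared with related genes, was at 0.41. SUC2, the invertase, read 809 and 1139 in R11ΔS15, 1233 and 671 in ΔS15 and 468, 533 and 780 in WT, and its 2 high arrays are the 2 with raised chromosome IX, where SUC2 lies. Without those arrays its log2 difference was 0.48 in R11ΔS15 and 0.21 in ΔS15, against 0.73 and 0.65 with them. The list named activators of glucose-repressed genes holds 12 genes, among them GCR1, GCR2 and TYE7, which act on glycolytic genes. Its median was 0.06 in R11ΔS15 and 0.02 in ΔS15. The 6 glucose-induced genes had -0.12 and -0.02, and the 15 measured genes of glucose transport -0.07 and 0.02. Without the 2 arrays with raised chromosome IX the medians were -0.09 in R11ΔS15 and 0.12 in ΔS15 for the activators, and 0.08 and 0.17 for transport.

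The 4 genes that set fructose 1,6- and 2,6-bisphosphate had a median of 0.26 in R11ΔS15 and 0.28 in ΔS15, and 1 of them rests on chromosome IX. PFK26, a 6-phosphofructo-2-kinase, read 612 and 1093 in R11ΔS15, 1125 and 566 in ΔS15 and 560, 478 and 539 in WT. The 2 high arrays are again those with raised chromosome IX. Without them its log2 difference was 0.22 in R11ΔS15 and 0.11 in ΔS15, against 0.64 and 0.61 with them. The values of 0.22 and 0.11 each rest on 1 mutant array. Without the genes of chromosome IX, the medians of this list were 0.17 and 0.07.

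**Figure D4:**
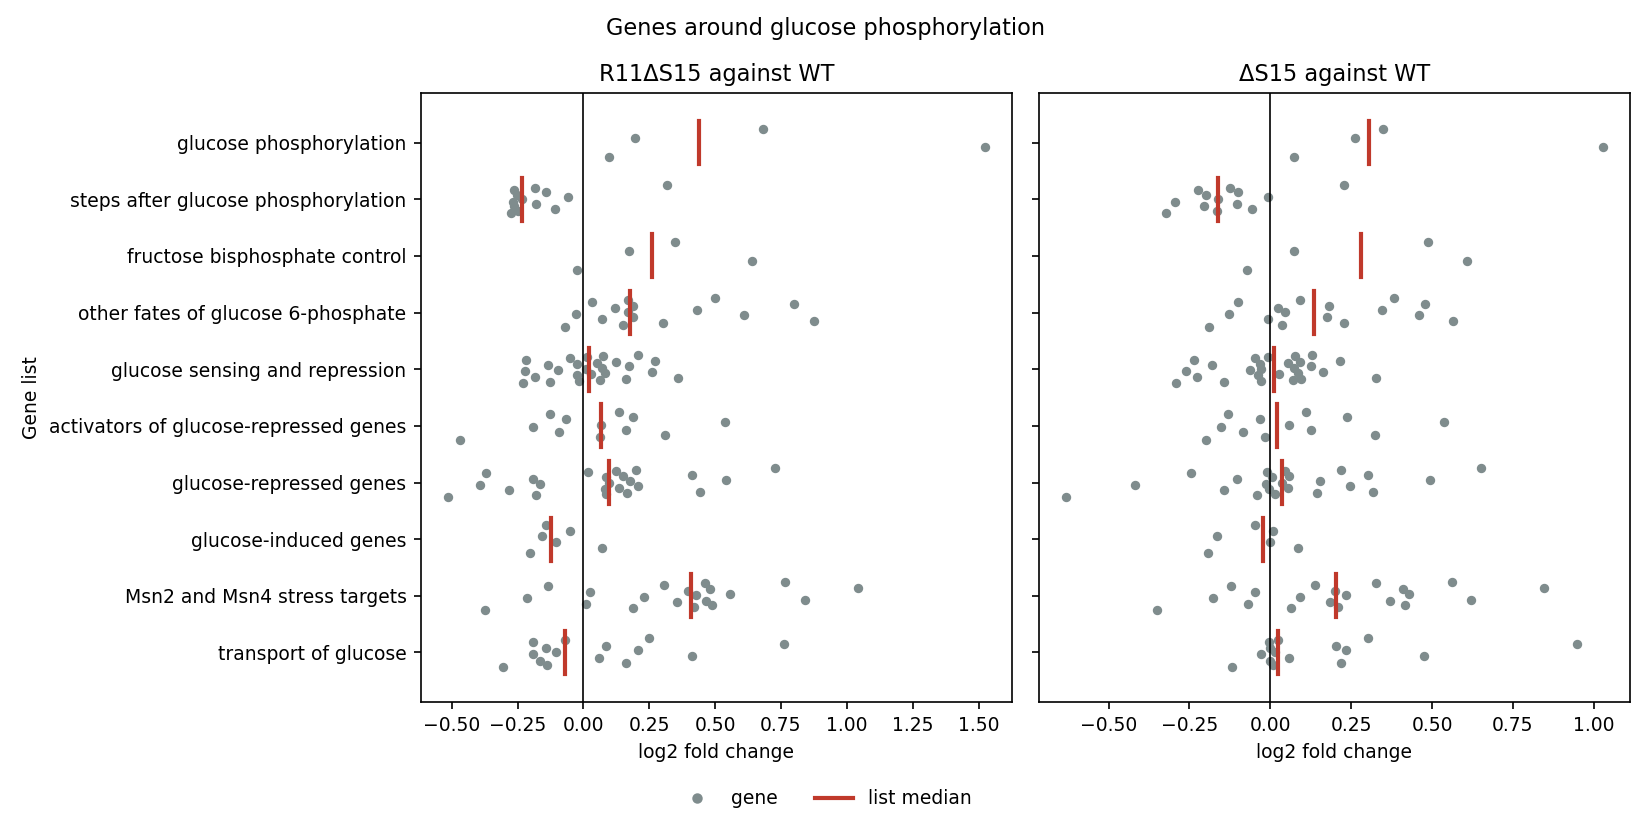
Log2 fold changes against WT (horizontal axes) of the genes in each list, for R11ΔS15 at left and ΔS15 at right; each grey point is a gene and the red bar the median of its list. The 13 genes of the steps after glucose phosphorylation have a median of -0.23 in R11ΔS15, and the 20 targets of Msn2 and Msn4 a median of 0.41.

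Several of these medians were nearer to 0, and others turned below it, when WT replicate 3 was the only WT array compared. Against WT replicate 3 alone, the median of the steps after phosphorylation was -0.08 in R11ΔS15 and -0.01 in ΔS15, that of the other fates of glucose 6-phosphate 0.10 and 0.02, that of the Msn2 and Msn4 targets 0.16 and 0.09, that of glucose-repressed genes -0.07 and -0.11, and that of glucose transport -0.23 and -0.09. The genes that set fructose 1,6- and 2,6-bisphosphate had medians of 0.01 in R11ΔS15 and 0.01 in ΔS15. The list of activators that includes GCR1, GCR2 and TYE7 had -0.08 and -0.11. Glucose sensing and repression had -0.05 and -0.07, and glucose-induced genes -0.06 and -0.03. All genes had medians of -0.05 in both strains on that scale. In WT itself, the median deviation from the WT mean of the steps after phosphorylation was 0.04, 0.09 and -0.11 in replicates 1, 2 and 3, and that of the other fates -0.17, 0.01 and 0.17. TSL1 still differed by 0.70 and DDR2 by 0.75 in R11ΔS15 against WT replicate 3 alone, beside 0.75 for HXK1.

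**Figure D5:**
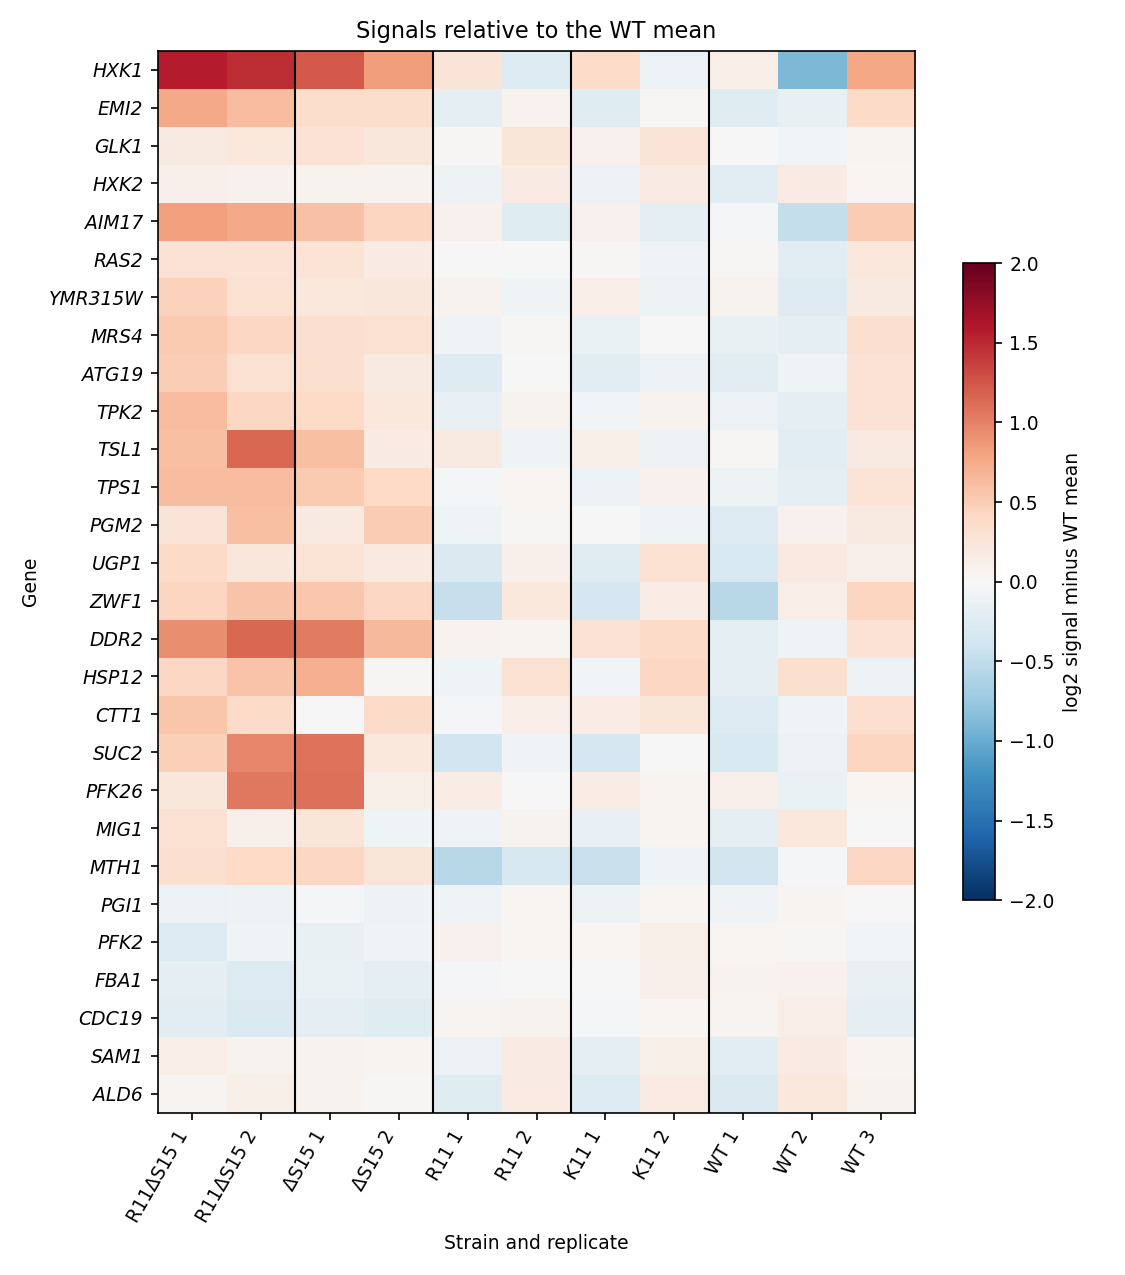
Log2 signal minus the WT mean (colour, red above and blue below) of the 4 members, genes that track them and genes around glucose phosphorylation, on each of the 11 arrays. HXK1, EMI2 and AIM17 are above the WT mean on every R11ΔS15 and ΔS15 array and also on WT replicate 3, and PFK26 stands out only on R11ΔS15 replicate 2 and ΔS15 replicate 1.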

How the data were processed

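Poly(A) RNA of 5 strains was hybridized by a core facility to 11 one-colour Affymetrix Yeast Genome 2.0 arrays. The authors deposited linear signal intensities computed with MAS5 and normalized as the manufacturer directs. The version of MAS5 is not given in the sources used here. Of 10928 probe sets, 5498 had an S. cerevisiae gene in the platform annotation. The brightest probe set stood for each gene, and 5415 genes had a mean above a signal of 5.09, the 95th percentile of S. pombe probe sets. Names and positions came from RefSeq R64.

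A linear model of the log2 signals with a term for each strain was fitted in limma (version 3.58.1, R 4.3.3) with a variance trend and Benjamini-Hochberg adjustment over all genes at 0.05. The labels call the replicates biological. The fit was run on simulated data for R11ΔS15 against WT (5415 genes), where it recovered 100% of 200 genes changed by 2 log2 units. The simulation gave every gene the same spread, held no array sets and used a change larger than that of any member (HXK1, 1.52). It checks the working of the fit and does not measure its power for these genes. Precision is limited by the number of arrays. The spike-in sets were defined at the widest gap of the spike-in means, and WT replicate 3 alone means the fit with those sets as a term.

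The members and lists were chosen with earlier results of these data known. Genes named were the 4 members, marked list genes, the 3 genes most correlated with each member, the nearest tested genes on each side and HTA1. PYK2 was named, and the genes given per array among the others were picked, after their values were seen. Alternatives were an offset, 2 other scalings, filters, probe set rules, each array left out, the replicate block, the spike-in sets and array weights.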

Additional observations from a re-analysis of the deposited data

How the results depend on the processing

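The log2 differences of the 4 members kept their direction in R11ΔS15 under every alternative, except that HXK2 was -0.01 without WT replicate 1. With the spike-in sets as a term, HXK1 was 0.75 in R11ΔS15 and 0.25 in ΔS15, and EMI2 0.29 and -0.041. Leaving out 1 array gave 1.07 to 1.91 for HXK1 in R11ΔS15 (lowest without WT replicate 2, highest without WT replicate 3) and 0.58 to 1.42 in ΔS15, 0.57 to 0.88 and 0.23 to 0.54 for EMI2, 0.17 to 0.22 and 0.23 to 0.29 for GLK1, and -0.01 to 0.18 and -0.03 to 0.15 for HXK2. GLK1 in R11 was 0.24 without R11 replicate 1 and 0.026 without R11 replicate 2. The offset, the 2 scalings, filters, probe set rules, array weights and a fit without the pair of arrays high on chromosome IX moved no member by more than its within-strain SD. The genes passing limma numbered 0 to 128 in R11ΔS15 and 0 to 38 in ΔS15 when 1 array was left out, with 128 and 38 without WT replicate 3, 0 to 1 in R11 against WT and 0 to 1 in R11ΔS15 against R11 (1 without R11 replicate 2 in both). With the replicate number as a block the counts were 343 in R11ΔS15, 173 in ΔS15 and 130 in R11ΔS15 against R11, where a fit of only those strains passed 17. Same-numbered arrays deviated together among WT, R11 and K11 (r 0.49 to 0.66 in 6 pairs) but not with ΔS15 or R11ΔS15 (-0.05 to 0.21 in 14 pairs). For 2 strains of 2 arrays each, replicates 1 and 2 give the same r by construction, so the pairs are not independent. No label ties the numbers to a shared day or culture, so the block was not used throughout. With it, R11 and K11 against WT passed 0 genes, HXK1 was 0.38 and 0.51, and EMI2 0.13 and 0.083. Leaving out 1 array gave -0.46 to 0.38 for HXK1 in R11 and -0.33 to 0.51 in K11. WT replicate 3 has no partner in the block. The causes of these shifts were not tested. List medians were recomputed under the same settings, chosen after seeing the data, and 809 of 864 stayed within the spread between replicates.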
